A study of Homo sapiens with 8 samples.

Results

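The core machinery of RNA interference was examined in 10 genes: the Argonaute genes AGO1, AGO2, AGO3 and AGO4, the nuclease genes DICER1 and DROSHA with the DROSHA partner DGCR8, and the GW182 family genes TNRC6A, TNRC6B and TNRC6C. The members were chosen by gene name, and all 10 were found among 43579 named genes or transcripts of the array, on 13 probes. The values came from 8 two-colour Agilent arrays of human cancer cell lines. On each array, the Cy3 channel carried RNA of mock cells, labelled as not transfected, and the Cy5 channel carried RNA of the same line after lipid transfection (Lipofectamine RNAiMAX) of a small RNA. Each mature strand of the miR-139 duplex, miR-139-5p or miR-139-3p, was given to A498 and to 786-O, both renal cancer lines, which makes 2 arrays per strand. The groups si-GINS1 1 and si-GINS1 2 were different small interfering RNAs (siRNAs) against GINS1, a subunit of the replicative helicase, in MDA-MB-231, a breast cancer line (n = 2 arrays). HCT116, a colorectal cancer line, received either mature strand of miR-490 (n = 1 array each). The mock cells received no control oligonucleotide, so the effect of a small RNA and that of transfection itself cannot be told apart, and the time between transfection and lysis was not given for these arrays in the sources used here.

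In the nucleus, DROSHA with DGCR8 cuts the primary miRNA transcript into a hairpin, and in the cytoplasm DICER1 cuts the hairpin into a duplex. One strand of the duplex is loaded onto an Argonaute protein, which pairs with target mRNAs. AGO2 is the Argonaute protein that cleaves a fully paired target, as an siRNA needs, and the TNRC6 (GW182) proteins bind Argonaute and recruit deadenylases to targets of miRNAs. Transfected mature miRNAs and siRNAs enter this path after DROSHA and DICER1.

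The 4 transfected miRNAs are shown because they are the small RNAs that these Argonaute proteins had to take up. The sequences are from RefSeq (GRCh38.p14), 5′ to 3′, with the seed (bases 2 to 8) in capitals. The strands of the miR-139 duplex lie on the minus strand of chromosome 11, miR-139-5p at chr11:72615102-72615124 and miR-139-3p at chr11:72615066-72615088. Those of miR-490 lie on the plus strand of chromosome 7, miR-490-5p at chr7:136903205-136903224 and miR-490-3p at chr7:136903242-136903263. No seed was shared between any of them.
miR-139-5p: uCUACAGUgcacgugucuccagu
miR-139-3p: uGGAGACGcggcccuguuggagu
miR-490-5p: cCAUGGAUcuccaggugggu
miR-490-3p: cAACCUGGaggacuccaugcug

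AGO1, AGO3 and TNRC6C each had 2 probes, and the other members had 1. The brighter probe over all arrays stood for the gene. Of the 13 probes, 12 lay well above background in Cy3 or Cy5 on all 8 arrays, so all 10 genes could be measured by their brightest probe everywhere. The other TNRC6C probe was well above background on 5 arrays in Cy3 and on 6 in Cy5. The brightest probes of AGO1 and TNRC6C held runs of a short repeat, which the other member probes whose sequence is given here did not. Stretches of 30 of their 60 bases are printed with the repeat run in capitals, beside the same length of the other probe of each gene. The brightest AGO1 probe lies on the plus strand of hg19 chromosome 1 (stretch chr1:36389840-36389869) and the other at chr1:36386500-36386529. The brightest TNRC6C probe lies on the plus strand of chromosome 17 (stretch chr17:76101704-76101733) and the other at chr17:76104813-76104842. Exon boundaries were not used here.
AGO1, brightest probe: CAGCAGCAGCAGCAGcacaattctgtgttt
AGO1, other probe: ttggaaatccttcccatgcctgatgagttt
TNRC6C, brightest probe: gttgaaacagaagTGTGTGTGTGTGtgcat
TNRC6C, other probe: gaaaaagaggcttgaggaagacaacaggtt

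The labels were checked by GINS1 and by markers of the lines, and not all markers went with them. GINS1 was below mock by a log2 ratio of -1.31 on the si-GINS1 1 array and -1.92 on the si-GINS1 2 array (mean -1.61 ± 0.43, SD, n = 2; limma adjusted p = 0.017). Per array, 24980 to 29685 of 58201 probes stood well above background in Cy3, Cy5 or both. Mock levels of EPCAM, CDH1 and CDX2 were highest in HCT116, and those of PAX8 and PAX2 were highest in A498 and 786-O. CA9 was well above background in 1 of the 4 mock channels of the renal lines, and VIL1 and LGR5 in none of the HCT116 channels. Within a line, both mock channels differed with an SD between 0.06 and 0.10 log2 units over probes. The array names give both arrays of a line the same mock code, so these channels are treated as 1 mock sample measured on 2 arrays.

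With the siRNAs against GINS1, AGO2 and TNRC6A rose, and so did AGO1 and TNRC6C by their repeat-holding probes. That is 4 of 10 genes higher and 0 lower at a limma adjusted p under 0.05, against 7.38% of 21450 genes tested, and 7 of 10 had an unadjusted p under 0.05, as had 26.8% of all genes. Of the 1584 genes that passed, 761 were higher, a split that median centring of the arrays turned to 2225 of 2459 and the scanner log ratio to 13 of 62. All values that follow are log2 ratios of transfected over mock.

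AGO2 had a log2 ratio of 0.43 on the si-GINS1 1 array and 0.48 on the si-GINS1 2 array (mean 0.46 ± 0.04, SD, n = 2; adjusted p = 0.021). Both lay above all 6 other arrays, where AGO2 was between -0.18 and 0.06. The AGO2 probe was spotted 10 times per array, and its ratio varied between those spots with an SD between 0.03 and 0.06. Set against the arrays of the other cell lines, the AGO2 difference was 0.50 (adjusted p = 0.037). TNRC6A, a scaffold that links Argonaute to the CCR4-NOT deadenylase, was at 0.78 with si-GINS1 1 and at 0.58 with si-GINS1 2 (mean 0.68 ± 0.14, SD, n = 2; adjusted p = 0.026). These were again the highest of its 8 values, and the others ran from 0.04 to 0.33. The TNRC6A difference from the other lines was 0.52, with an adjusted p of 0.083. Over the processing alternatives the adjusted p of AGO2 ran from 0.0014 to 0.52 and that of TNRC6A from 0.0023 to 0.52. Median centring in place of loess put AGO2 at 0.77.

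AGO1 by its brightest probe was at 0.50 and 0.48 on the si-GINS1 arrays (mean 0.49 ± 0.02, SD, n = 2; adjusted p = 0.026), and median centring put it at 0.92. Its other probe was at 0.14 and -0.10 (mean 0.02 ± 0.17, SD, n = 2; adjusted p = 0.90). That probe was dim, with Cy3 brightness of 40.8 and 44.6 on these arrays, against 779 and 877 for the brightest. Its ratios are thus drawn toward 0 by the background offset, and the scanner log ratio put it at 0.31 and -0.38. TNRC6C by its brightest probe was at 0.46 and 0.61 (mean 0.54 ± 0.11, SD, n = 2; adjusted p = 0.019), and its other probe was at -0.05 on both arrays (adjusted p = 0.51). That other probe was near background, with Cy3 brightness of 25.1 and 29.1, so its ratios are drawn toward 0 as well. The scanner log ratio put it at -0.44 and -0.27. Median centring put the brightest TNRC6C probe at 0.88. The probes of each gene thus differed by more than the spread between both arrays. With AGO1 and TNRC6C read from the probe without the repeat, an alternative chosen after the data were seen, 2 of 10 members passed the test. For TNRC6C the difference from the arrays of the other lines was 0.07 (adjusted p = 0.60), and for AGO1 it was 0.34 (adjusted p = 0.094).

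**Figure D1:**
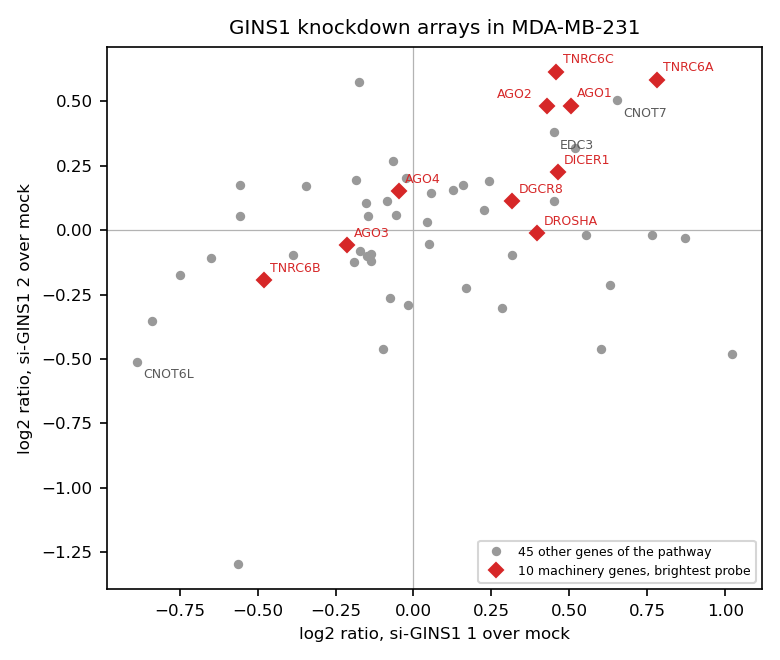
Log2 ratio of transfected over mock on the si-GINS1 1 array (horizontal axis) and on the si-GINS1 2 array (vertical axis), 1 point per gene. Diamonds are the 10 machinery genes by their brightest probe and grey points the 45 other genes of the pathway, with the 3 that passed the test named. TNRC6A, AGO2, AGO1 and TNRC6C lie above 0.4 on both axes.

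The other 6 members did not pass the test with si-GINS1. DICER1 was at 0.46 and 0.23 (mean 0.34, adjusted p = 0.10), and DGCR8 was at 0.32 and 0.11 (mean 0.21, adjusted p = 0.165). DROSHA differed between the siRNAs, at 0.40 with si-GINS1 1 and -0.01 with si-GINS1 2 (mean 0.19 ± 0.29, SD, n = 2; adjusted p = 0.33). TNRC6B, a paralogue of TNRC6A, was at -0.48 and -0.19 (mean -0.34, adjusted p = 0.085), the only member below -0.2 in mean. AGO3 was at -0.21 and -0.06 and AGO4 at -0.05 and 0.15. Median centring gave means of 0.68 for DICER1, 0.43 for DGCR8, 0.66 for DROSHA, -0.11 for TNRC6B, 0.15 for AGO3 and 0.14 for AGO4, none of which passed the test. Without the si-GINS1 2 array 8 of 10 members passed the test, as did 35.1% of all genes, and without the si-GINS1 1 array 4 passed, as did 25.1% of all genes. In each of these fits the remaining array is assumed to vary like the other groups.

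The miR-139 strands were compared with mock to see whether the machinery moved when a miRNA was supplied. No member passed the test with the 5p strand (0 of 10, against 0.0164% of 18318 genes) or with the 3p strand (0 of 10, against 0% of 18005 genes; limma, adjusted p under 0.05). An unadjusted p under 0.05 was reached by 2 members with the 5p strand, among 515 genes (2.81%), and by 1 with the 3p strand, among 881 (4.89%). They were TNRC6C and AGO1 with the 5p strand and TNRC6C with the 3p strand. TNRC6C had mean log2 ratios of 0.39 ± 0.03 (SD, n = 2) with the 5p and 0.36 ± 0.0022 (SD, n = 2) with the 3p strand, and AGO1 had 0.25 ± 0.01 (SD, n = 2) with the 5p strand, all by the repeat-holding probes.

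AGO2 was close to mock on all 4 miR-139 arrays. The 5p strand gave -0.05 in A498 and -0.05 in 786-O, and the 3p strand gave 0.06 in the former and -0.05 in the latter. The 95% interval of its mean ran from -0.19 to 0.09 for the 5p strand and from -0.14 to 0.15 for the 3p strand. DICER1 was higher in A498 (0.26 with the 5p and 0.21 with the 3p strand) than in 786-O (0.02 and 0.05), but the test of that difference between the lines, a limma fit over the 4 arrays, gave an adjusted p of 0.82. TNRC6A showed a like split with the 5p strand, 0.33 in A498 against 0.04 in 786-O, but not with the 3p strand, 0.10 against 0.05. TNRC6B was at -0.10 and -0.24 with the 5p strand and at 0.01 and -0.03 with the 3p strand. Of the other members, DROSHA lay between 0.03 and 0.18, AGO4 between 0.02 and 0.12, DGCR8 between -0.0050 and 0.18, and AGO3 between -0.09 and 0.24. The AGO4 and DGCR8 probes were dim on these arrays, with Cy3 brightness from 24.2 to 33.6 and from 33.6 to 41.6. Their ratios and intervals are thus drawn toward 0. The scanner log ratio put AGO4 between 0.16 and 0.46 and DGCR8 between -0.07 and 0.62. The 95% intervals of the 9 members other than TNRC6C reached from -0.39 to 0.42 for the 5p strand and from -0.27 to 0.38 for the 3p strand, taking in the other probes of AGO1 and AGO3.

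Between the strands, miR-139-3p minus miR-139-5p, no member passed the test (0 of 10, 0% of 17538 genes). None had an unadjusted p under 0.05, against 122 genes in all. The differences ran from -0.16 for AGO3 to 0.16 for TNRC6B, and the interval for AGO2 ran from -0.15 to 0.26. For TNRC6B both 5p arrays were below both 3p arrays, while for AGO3 the strands were level in 786-O, at 0.03.

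**Figure D2:**
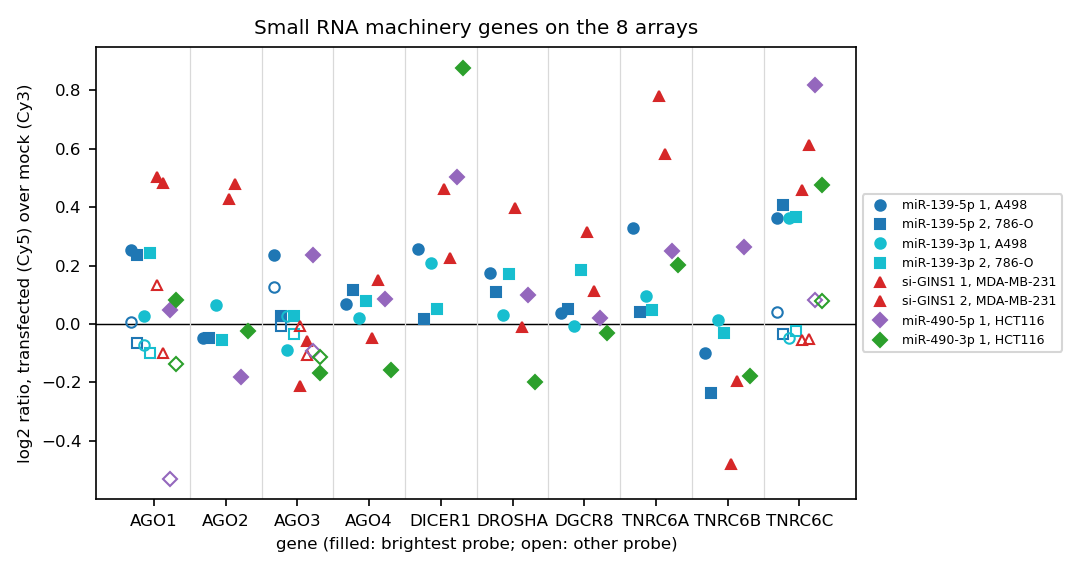
Log2 ratio of transfected over mock (vertical axis) of each of the 10 machinery genes on each of the 8 arrays. Colour gives the small RNA and shape the cell line, filled points are the brightest probe and open points the other probe of AGO1, AGO3 and TNRC6C. DICER1 was highest with miR-490-3p at 0.88, AGO2 and TNRC6A were highest with si-GINS1, and the brightest TNRC6C probe lay between 0.36 and 0.82 on all arrays.

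HCT116 had a single array for each strand of miR-490 and so no spread of its own. No test was run, and a size rule was used. No member reached a log2 ratio of 1 in either direction on the miR-490-5p array, where 1.39% of 21627 genes did, or on the miR-490-3p array, where 1.07% of 21958 genes did. No member differed by 1 or more between the strands, against 1.28% of 20869 genes. DICER1 came nearest. The 5p strand gave 0.50 and the 3p strand 0.88, higher than 96.2% and 99.3% of genes on those arrays. Its values on the other 6 arrays ran from 0.02 to 0.46, so both HCT116 values lay above them. The strands differed by 0.38 for DICER1, and with 1 culture per strand no spread between cultures stands beside that value. The scanner log ratio put DICER1 at 1.04 with the 3p strand, past the size rule, but so were 8.01% of all genes in that setting. Median centring put it at 1.11, also past the rule, with 1.48% of all genes. As a difference from the arrays of the other lines, it was 0.30 for the 5p and 0.68 for the 3p strand.

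AGO2 was at -0.18 with the 5p strand and at -0.02 with the 3p strand, the former the lowest of its 8 values. TNRC6B was at 0.27 with the 5p strand, its highest value, and at -0.18 with the 3p strand. This gave the largest strand difference among the members, -0.44 (3p minus 5p). AGO3 by its brightest probe was at 0.24 and -0.17, but its other probe was at -0.09 and -0.11. DROSHA was at 0.10 and -0.20, AGO4 at 0.09 and -0.16, DGCR8 at 0.02 and -0.03, and TNRC6A at 0.25 and 0.20. For AGO1 the probes differed, with 0.05 and 0.08 by the brightest and -0.53 and -0.14 by the other. The scanner log ratio put that other, dim probe at -1.37 and -0.29. TNRC6C was at 0.82 and 0.48 by its brightest probe and at 0.08 on both arrays by the other. The scanner log ratio put that other TNRC6C probe, which is near background, at 0.68 and 0.62. Over the 8 arrays the median log2 ratio of the 10 members lay between -0.03 (miR-490-3p) and 0.41 (si-GINS1 1), and that of all genes between 0.0016 and 0.01.

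The repeat runs in the AGO1 and TNRC6C probes were then searched in all probe sequences. The run TGTGTGTGTGTG, held by the brightest TNRC6C probe, was found in 31 of 58201 probes in that direction (0.0533%) and in 49 on either strand. All 31 were well above background on all 8 arrays, compared with 35.4% of all probes. They named unrelated genes and many long noncoding RNAs, and 29 of 31 had a log2 ratio above 0 on every array. Their median per array lay between 0.33 and 0.50, and TNRC6C lay between 0.36 and 0.82. With si-GINS1, 23 of the 31 passed the test, all higher than mock. With miR-490-5p, TNRC6C was the highest of the 31, which began at 0.19. No dye swap was made in the series, so a ratio away from 0 on every array is also what a probe with unequal dye uptake shows. The brightest AGO1 probe and the DICER1 and TNRC6A probes were above 0 on all 8 arrays too, with medians of 0.24, 0.24 and 0.23. The part of the dyes in the values of these genes, and of the repeat and the dyes in the TNRC6C values, was not tested.

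CAGCAGCAGCAGCAG, the run in the brightest AGO1 probe, was found in 4 probes (0.00687%; 5 on either strand), which named AGO1, CDK13, TFEB and lnc-TMEM159-2. With si-GINS1 all 4 were above 0 on both arrays, and 1 of 4, AGO1, passed the test. Their means there were 0.49 for AGO1, 0.48 for TFEB, which encodes a regulator of lysosomal genes, 0.36 for CDK13, a kinase of the transcription machinery, and 0.16 for lnc-TMEM159-2. Elsewhere the 4 probes went apart. In HCT116 with miR-490-5p, TFEB was at 0.48 while AGO1 and CDK13 were both at 0.05, and in A498 with miR-139-3p TFEB was at -0.14 and lnc-TMEM159-2 at 0.22. The part of the repeat in the AGO1 values was likewise not tested.

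**Figure D3:**
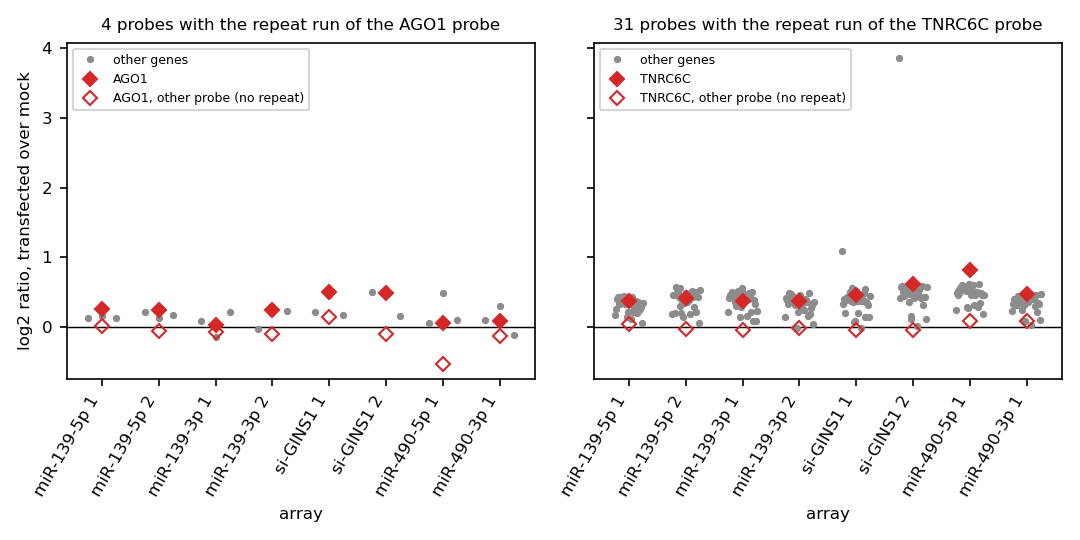
Log2 ratio of transfected over mock (vertical axis) on the 8 arrays for the 4 probes that hold the repeat run of the brightest AGO1 probe (left) and the 31 that hold that of the brightest TNRC6C probe (right). Grey points are other genes, filled diamonds AGO1 or TNRC6C, and open diamonds the other probe of that gene, which holds no such run. The TNRC6C probe lies within the other 30 on 7 of the 8 arrays and above them at 0.82 with miR-490-5p, and the grey point at 3.87 is RASD1.

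Mock levels were compared between the 4 lines, as log2 Cy3 brightness after quantile normalization, to set the lines side by side in the machinery they had before transfection. Each line is 1 mock sample here, so these are values with no test, and levels of different probes are not set against each other. A range of 1 log2 unit or more between the highest and the lowest line was found for AGO1 (2.11), AGO2 (1.30) and DGCR8 (1.02). That is 3 of 10 members, with 27.9% of 22879 genes past the same range, a similar share. The median range was 0.72 for the members and 0.57 for all genes.

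AGO2, the slicing Argonaute, was highest in HCT116, with mock channels at 8.46 and 8.52. It followed in 786-O at 8.31 and 8.32, then in MDA-MB-231 at 7.62 and 7.58, and was lowest in A498 with a mean of 7.19. Every step in this order was larger than the gap between channels, and A498 lay 2.47-fold below HCT116. The renal lines, both used for miR-139, thus lay on opposite sides of MDA-MB-231 in AGO2. DGCR8 was highest in HCT116 as well (7.39 and 7.36), followed by MDA-MB-231 (6.75 and 6.70), while 786-O (6.43 and 6.29) and A498 (6.37 and 6.34) overlapped. Its range lay just past the threshold of 1, and the nearest member below it was DICER1 at 0.86.

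DICER1 had the order MDA-MB-231 (7.93 and 7.94), HCT116 (7.67 and 7.65), 786-O (7.43 and 7.47) and A498 (7.05 and 7.09), with no overlap between neighbours. DROSHA was highest in 786-O (10.52 and 10.47) and lowest in A498 (9.75 and 9.73), and MDA-MB-231 and HCT116 overlapped between them. AGO3 had the order of AGO2, HCT116 first and A498 last, by both of its probes, with ranges of 0.68 and 0.86. AGO4 had that order too, with a range of 0.37 on a dim probe. A498 thus had the lowest mean mock level for AGO2, AGO3, AGO4, DICER1, DROSHA and, overlapping with 786-O, DGCR8. TNRC6B was also lowest there, overlapping with MDA-MB-231. The share of all genes that were lowest in A498 was not counted, so this list says nothing about the machinery as a set.

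TNRC6A and TNRC6C by its brightest probe ran the other way, with A498 highest. TNRC6A was at 7.69 in A498 and at most 7.27 in the other lines, and TNRC6C was at 8.60 in A498, followed by 8.31 in 786-O. TNRC6B ranged from 7.06 in A498 to 7.45 in HCT116. The ranges were 0.49 for TNRC6A, 0.39 for TNRC6B and 0.59 for TNRC6C, where the other TNRC6C probe, near background, had 0.085. Of the 31 probes with the TG run, 28 were higher in the renal lines, by a median of 0.42 over all 31. The TNRC6C probe is among the 31 and is itself the one that holds this median.

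AGO1 by its brightest probe was highest in 786-O (11.01 and 10.92) and A498 (10.44 and 10.65), and lower in MDA-MB-231 (9.14 and 9.28) and HCT116 (8.93 and 8.76). The other AGO1 probe did not show this order, but it was dim and so could show little difference. It was highest in HCT116 (6.54), ahead of 786-O (6.43), A498 (6.19) and MDA-MB-231 (6.17). Its range was 0.37, and 1.16 with the scanner signal scaled to the 75th percentile. All 4 probes with the CAG run were higher in the renal lines, by between 0.95 and 2.21 log2 units, and TFEB had the order of AGO1 (786-O first, then A498 at 10.3, MDA-MB-231 at 8.55 and HCT116 at 8.37). Over all probes well above background on all arrays, the renal lines differed from the other lines by a median of -0.02. Brightness is no measure of protein.

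**Figure D4:**
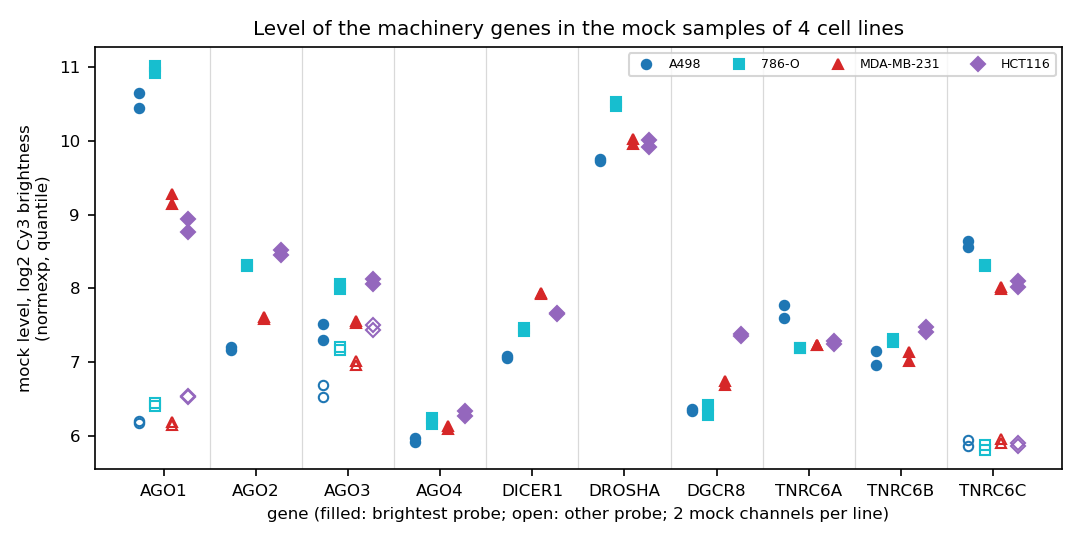
Mock level, as log2 Cy3 brightness after normexp and quantile normalization (vertical axis), of the 10 machinery genes in 4 cell lines. Each line has 2 points per probe, the mock channels of its 2 arrays; filled points are the brightest probe and open points the other probe. AGO2 ran from 7.19 in A498 to 8.49 in HCT116. The renal lines stood above the others in the brightest AGO1 probe (10.54 and 10.96) but not in the other, dim one.

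The machinery works with a wider set of proteins, listed as 45 genes in 5 roles, of which 43 were tested in each comparison (LIN28A and LIN28B, which hold back let-7 maturation, did not pass the filter on background of any). None passed the test with either miR-139 strand or between the strands. An unadjusted p under 0.05 was reached by 1 of 43 with the 5p strand, 4 with the 3p strand and 0 between them. Of all genes tested, 2.81%, 4.89% and 0.696% did so. No pathway gene passed the size rule with either strand of miR-490 or between them. With si-GINS1 3 of 43 passed, 2 higher and 1 lower, and their share was close to that of all genes. CNOT7, a catalytic subunit of the CCR4-NOT deadenylase, rose (0.65 and 0.50; mean 0.58 ± 0.11, SD, n = 2; adjusted p = 0.018). CNOT6L, the other kind of catalytic subunit of that complex, fell (-0.89 and -0.51; mean -0.70 ± 0.27, SD, n = 2; adjusted p = 0.030). EDC3, an enhancer of decapping, rose (0.45 and 0.38; mean 0.42 ± 0.05, SD, n = 2; adjusted p = 0.029). By role, 0 of 8 processing partners, 0 of 9 loading factors and 0 of 4 tailing and turnover factors passed, with 2 of 13 deadenylation genes and 1 of 9 decapping and decay genes. Set against the arrays of the other lines, none of the 43 passed. Other probes of CNOT7 and CNOT6L had means of 0.32 and -0.12.

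In the mock samples, 7 of the 43 pathway genes had a range of 1 log2 unit or more, a smaller share than that of all genes. The widest was SRRT (2.09), a partner of the nuclear cap-binding complex, lowest in A498 (8.06) and highest in HCT116 (10.14). DCP1B, a decapping cofactor, ranged over 1.93 and was lowest in MDA-MB-231 (6.82). HSP90AB1 (1.63) and HSP90AA1 (1.08), chaperones that help to load Argonaute, were both lowest in A498. DDX17 (1.49) and DDX5 (1.24) are helicases that work with DROSHA, and EDC4 (1.03) is a decapping scaffold. DDX17 was highest in A498 (9.13) and lowest in MDA-MB-231 (7.64), and DDX5 was highest in HCT116 (11.52).

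DICER1 had the widest range of log2 ratio over the arrays among the members' brightest probes (0.86). Among 8988 genes well above background on all 8 arrays with a range of at least 0.5, those with the most like pattern over the 8 arrays were a long noncoding transcript (Pearson r = 0.99), PEX3, a peroxisome assembly factor (r = 0.98), and ZDHHC7, a palmitoyltransferase (r = 0.97). All 3 were highest on the miR-490-3p array, at 0.47, 0.54 and 0.65. The 8 points share mock samples in pairs and 1 slide, and the correlations are a description.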

How the data were processed

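Gene expression was measured on 8 Agilent two-colour arrays of 1 slide. Per the file headers, the authors scanned it and extracted spots with Agilent Feature Extraction 11.5.1.1. The deposited intensity values are mean spot and median background brightness per channel, not normalized. A log10 ratio (Cy5 over Cy3) made by the scanner software was deposited too and served, as log2, as an alternative called the scanner log ratio, and the value table of the series held the same ratios (largest difference 0). The deposited flags (well above background, outlier, saturated, unit other) served as filters.

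Each array held 62976 spots, 2075 of them controls, for 58201 probes. Between 112 and 194 flagged spots per array were left out and 0 were saturated. Background was corrected with normexp (offset 50) in limma 3.58.1 (R 4.3.3), ratios were normalized within arrays by loess that gave controls no weight, and repeated spots were averaged. Ratios of dim probes are drawn toward 0 by the offset. Probes were named through RefSeq accessions (31104 of 31770 matched a table for GRCh38.p14) and otherwise by the array's own names. Probe positions were taken from the array's own annotation (hg19).

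Groups of 2 arrays were tested with limma (lmFit, eBayes) in 1 fit of all 8 arrays with a coefficient per group, on probes that stood well above background in Cy3 or Cy5 on each of its arrays, adjusted by Benjamini-Hochberg over all probes tested. Replicates are 2 lines or 2 siRNAs. The spread behind a p-value is pooled over all groups of 2 arrays and moderated over probes. A p-value with si-GINS1 is therefore no measure of the spread between the siRNAs alone. Mock samples contribute no spread of their own to a ratio tested against 0. The other size comparisons, of single arrays and of mock levels after quantile normalization of Cy3, were read by a size rule of 1 log2 unit. Counts of genes use the brightest probe of each. The miR-139 strands pair by cell line, and their deviations from the group means correlated at 0.075 over 22178 probes. Named genes were all members with every probe, pathway genes past a threshold (at most 6 per comparison), the 3 genes most like the member with the widest range, and GINS1. RASD1, CDK13, TFEB and lnc-TMEM159-2 were named after their values were seen. The members and lists were chosen with earlier results of these data known. The fit was tested on simulated data. The number of arrays limits the precision. Figures used Python 3.11.15, matplotlib 3.10.9 and pandas 2.3.3. Alternatives are given in the closing section.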

Additional observations from a re-analysis of the deposited data

How the results depend on the processing

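The 4 members called with si-GINS1 became 0 with the scanner log ratio, 2 with a normexp offset of 10, 1 as a difference from the arrays of the other cell lines (AGO2), 0 with a variance trend and robust prior, 0 with the arrays of the comparison only, 9 with the mock of a cell line as a random block, under which 38.7% of all genes were called, and 2 with AGO1 and TNRC6C by the probe without the repeat, and ran from 4 to 8 when 1 array was left out (25.1% and 35.1% of all genes). The 3 pathway genes became 0 with the scanner log ratio and 0 as a difference from the other lines. They became 0 with the variance trend, 0 with the arrays of the comparison only and 20 of 43 with the random block. The shares of all genes in these settings are those just given. On the miR-490-3p array the count of members past 2-fold was 1 with the scanner log ratio and 1 with median centring (DICER1). That of pathway genes was 1 with median centring. Of all genes, 8.01% and 1.48% were past 2-fold in these settings. Between the miR-490 strands, pathway genes numbered 2 with the scanner log ratio, where 9.69% of all genes passed. They numbered 1 each with no background correction (2.72% of all genes), an offset of 10 (3.15%) and median centring (2.03%). The mock range count of members was 6 with the scanner signal scaled to the 75th percentile, under which 71.3% of all genes passed. That of pathway genes was 22 there. It was 14 with no background correction (42.8% of all genes), 14 with an offset of 10 (46.8%) and 4 with the median of probes (24.3%). In the Cy5 channel it was 14 of 43, against 29.4% of all genes. The smaller share of pathway genes found in the mock samples thus did not hold in Cy5. The cause of these shifts was not tested. Counts for miR-139 were 0 under every alternative run, and with cell line as a replicate block of the strands the members called were 0 and the pathway genes 0.

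Some ratios changed sign. As a difference from the other lines, miR-139-5p gave AGO1 -0.034, DICER1 -0.38, DGCR8 -0.059, TNRC6A -0.27 and TNRC6C -0.21, and miR-139-3p gave AGO1 -0.14, AGO2 -0.17, AGO3 0.018, DICER1 -0.39, DGCR8 -0.015, TNRC6A -0.38, TNRC6B 0.14 and TNRC6C -0.23. Median centring gave AGO2 0.047 for miR-139-5p, AGO3 0.064 and TNRC6B 0.065 for miR-139-3p, and AGO3 0.15 for si-GINS1. The scanner log ratio gave TNRC6B 0.0072 for miR-139-3p. When 1 array was left out, miR-139-3p gave AGO2 from -0.054 to 0.064, AGO3 from -0.090 to 0.026, DGCR8 from -0.0050 to 0.18 and TNRC6B from -0.031 to 0.012, and si-GINS1 gave AGO4 from -0.047 to 0.15 and DROSHA from -0.011 to 0.40. For miR-490-5p the difference from the other lines gave AGO1 -0.24, DROSHA -0.046, DGCR8 -0.094 and TNRC6A -0.062, and for miR-490-3p AGO1 -0.21 and TNRC6A -0.11. For miR-490-3p median centring gave AGO2 0.24, AGO3 0.054, DROSHA 0.13 and DGCR8 0.14, and the median of probes gave AGO1 -0.24 and -0.027 for the 5p and 3p strands. No ratio that changed sign had passed the test or the size rule.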
